A study of Homo sapiens with 9 samples.

Results

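The genes described here are 9 secreted ligands of the transforming growth factor beta (TGF-beta) family, BMP2, BMP4, BMP7, INHBA, INHBB, TGFB1, TGFB2, TGFB3 and GDF15, and FST, which encodes the activin antagonist follistatin. They were taken by symbol from the count table, where they make up 10 of 56809 genes. BMP2 and INHBA were selected on their measured values, since both lay far from control under both hairpins in these same libraries, and their differences from control are therefore given as a description with no test. The other 8 were added by name as relatives, with earlier results of these data known.

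RNA was sequenced from MDA-MB-468 cells, an established human line derived from a triple-negative breast adenocarcinoma. Each of 3 groups had 3 libraries. Control cells carried the lentiviral hairpin vector pSicoR without an insert, and the other groups carried the vector with the short hairpin shLMO2-1 or shLMO2-2, both named for LMO2, a LIM-domain cofactor that bridges DNA-binding proteins. No other genotype or agent is given in the labels, and all groups share the parent line and the infection. The labels do not say whether the libraries of a group came from separate cultures, so the p-values measure only the spread between these libraries, which may be technical. Both hairpin groups were set against the same control libraries.

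Ligands of the TGF-beta family are made as precursors, cleaved, and secreted as dimers that bring type I and type II receptor kinases together. TGF-beta and activin ligands mainly lead to phosphorylation of SMAD2 and SMAD3, and bone morphogenetic proteins (BMPs) to that of SMAD1, SMAD5 and SMAD9. In mammary epithelium these ligands are known for growth control and for changes of epithelial character, and their action is limited by extracellular antagonists such as follistatin and by the latent form in which TGF-beta is stored.

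Upstream sequence is shown for INHBA and INHBB, because these genes encode the beta subunits that pair into activins and their counts stood in different proportions in control and hairpin libraries. LMO2 is known to be held on DNA at E-box and GATA motifs by its partners, so capitals mark matches to CANNTG and GATA on either strand. The INHBA window covers chr7:41703109-41703340 (minus strand, 232 bases) and the INHBB window chr2:120345886-120346135 (plus strand, 250 bases), both from RefSeq on GRCh38.p14 and limited to the bases upstream of the annotated start.
INHBA: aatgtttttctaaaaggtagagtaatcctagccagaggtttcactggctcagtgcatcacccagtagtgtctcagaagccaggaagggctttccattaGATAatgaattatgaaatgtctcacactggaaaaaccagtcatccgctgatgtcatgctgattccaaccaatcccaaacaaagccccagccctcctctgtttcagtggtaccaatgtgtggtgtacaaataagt
INHBB: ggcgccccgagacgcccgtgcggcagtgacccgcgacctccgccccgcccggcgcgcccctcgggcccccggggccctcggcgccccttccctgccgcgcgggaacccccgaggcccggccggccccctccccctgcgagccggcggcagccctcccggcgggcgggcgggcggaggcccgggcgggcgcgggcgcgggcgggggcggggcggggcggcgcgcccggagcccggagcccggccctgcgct
The INHBA window held 1 GATA match, 130 bases before its end, and no CANNTG match, while the INHBB window held neither. Of 35116 RefSeq windows of 250 upstream bases, 45.62% held GATA and 61.82% held CANNTG, so either motif is common by letters alone. The windows differed in base composition, with 44.0% G and C for INHBA and 89.6% for INHBB. The INHBA window lies inside the annotated span of the gene, since other transcripts start further upstream. Entries were found for 8 of the 10 genes and not for BMP2 and BMP7.

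Library totals lay between 15494486 and 23069456 counts. LMO2, the hairpins' target, had 4, 35 and 19 counts in control replicates 1 to 3, 2, 1 and 6 in shLMO2-1, and 1, 4 and 3 in shLMO2-2. Control replicate 1 thus lay within the range of the hairpin libraries for LMO2. Markers of the labelled cell type were present. The 7 epithelial and basal-like markers summed to between 12660 and 15733 CPM (counts scaled to a common library size, with edgeR's TMM factors) over the 9 libraries, with no marker at 0. Their sum was 12660 to 13857 CPM in control, 14786 to 15733 in shLMO2-1 and 14112 to 15697 in shLMO2-2, and its part in the results was not tested. Of these, EPCAM stood at 432 ± 7.16, 389 ± 18.1 and 407 ± 18.9 CPM and CDH1 at 317 ± 7.95, 295 ± 12.7 and 287 ± 4.23 CPM in the same order (SD, n = 3), so not every marker followed the sum. EGFR, the largest of the 7, stood at 5472 ± 744, 7507 ± 435 and 5985 ± 469 CPM, and KRT5 at 3203 ± 44.8, 2648 ± 198 and 3380 ± 255. Of the genes known to be low in triple-negative lines, PGR had no count, ESR1 was at most 6.10 CPM, and ERBB2 lay between 42.2 and 56.5 CPM. Of markers for other cells, 4 of 5 blood and immune genes had no count and their sum reached at most 0.348 CPM. The 5 fibroblast markers, of which COL3A1 and LUM had no count, summed to 9.79 to 14.2 CPM in control, 12.4 to 17.1 in shLMO2-1 and 14.3 to 16.5 in shLMO2-2. The 4 endothelial markers summed to 5.48 to 13.05, 12.5 to 17.7 and 8.13 to 10.9 CPM in the same order, none of them at 0 in all libraries. In each of these sums a single gene was the largest part. COL1A1 averaged 11.2, 14.2 and 15.5 CPM and KDR 6.02, 11.8 and 7.43 CPM in the same order.

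In control cells, TGFB2 was the most abundant of the 10 transcripts per unit length, and GDF15 and FST were barely detected. Dividing CPM by the median length of the coding transcripts gave 43.9 ± 6.92 CPM per kilobase for TGFB2 (SD, n = 3, as for the values that follow), a ligand held in latent complexes. TGFB1 stood at 19.3 ± 2.55 and INHBB at 19.2 ± 3.61 CPM per kilobase, with overlapping libraries. BMP7 at 8.29 ± 1.72 and BMP4 at 7.05 ± 1.14 CPM per kilobase overlapped as well. INHBA at 4.87 ± 0.766 and BMP2 at 3.14 ± 0.429 CPM per kilobase followed, each apart from its neighbours. TGFB3 was lower at 1.00 CPM per kilobase, and FST (0.190) and GDF15 (0.159) overlapped at the bottom. With the longest transcript in place of the median, INHBB came before TGFB1, BMP4 before BMP7 and BMP2 before INHBA, so those neighbours have no fixed order.

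**Figure D1:**
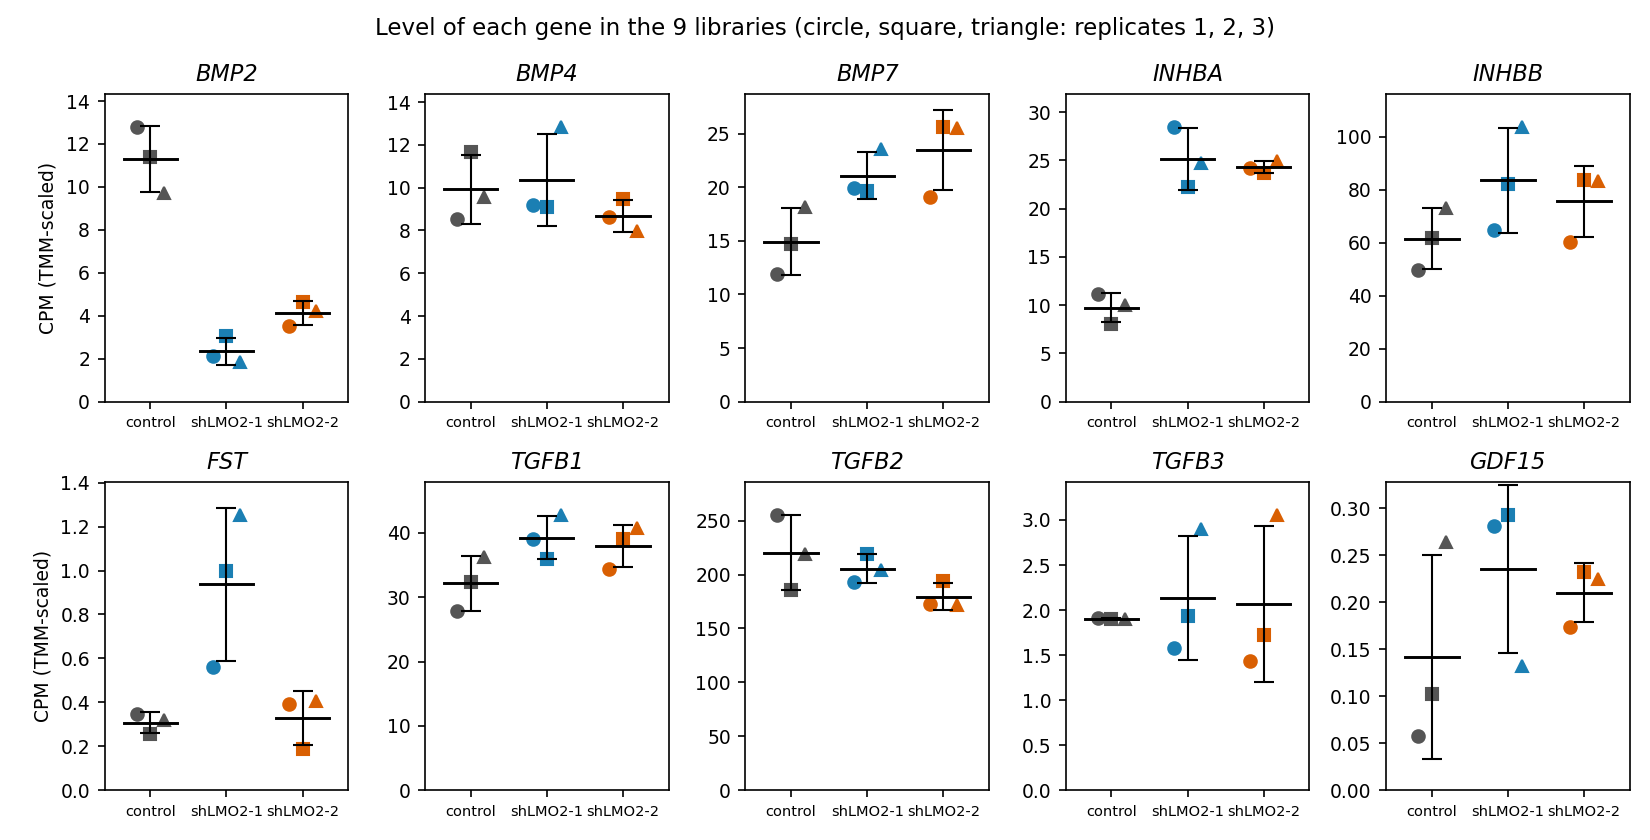
Level of each of the 10 genes in CPM (vertical axes, each from 0) in the 3 libraries of each group, with circle, square and triangle for replicates 1, 2 and 3. Horizontal lines are group means and bars are the SD of 3 libraries. BMP2 lies at 9.73 to 12.8 CPM in control and at or below 4.64 in every hairpin library, and INHBA at or below 11.1 CPM in control and at or above 22.2 in every hairpin library.

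BMP2 was lower under both hairpins, and lower under shLMO2-1 than under shLMO2-2. BMP2 encodes a bone morphogenetic protein that signals through BMP type I receptors (chr20:6767664-6780280, plus strand, GENCODE 29, GRCh38). Its level was 12.8, 11.4 and 9.73 CPM in control replicates 1 to 3, from 184 to 222 counts. It was 2.14, 3.05 and 1.85 CPM in shLMO2-1 (28 to 52 counts), and 3.52, 4.64 and 4.22 CPM in shLMO2-2 (81 to 100 counts). The 3 groups did not overlap. Control cells averaged 11.3 ± 1.54 CPM, shLMO2-1 cells 2.34 ± 0.627 and shLMO2-2 cells 4.13 ± 0.566 (SD, n = 3), giving log2 differences of −2.26 (SE 0.21) and −1.45 (SE 0.19). In folds, BMP2 was 4.795 times and 2.74 times lower than control. From a bulk sample, fewer cells making a transcript and less of it per cell cannot be told apart, here and below.

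The difference between the hairpins was tested, though the hairpin values in it are among those on which BMP2 was selected. Expression was higher in shLMO2-2 than in shLMO2-1 by 0.81 on the log2 scale (SE 0.21, 95% interval 0.34 to 1.28), all 3 libraries of shLMO2-2 lying above all 3 of shLMO2-1. Adjusted over the 14709 genes tested, p was 0.147 in edgeR's quasi-likelihood test with Benjamini-Hochberg adjustment, which missed the threshold of 0.05. The same difference passed with no filter on low counts (adjusted p = 0.0307) and just passed in DESeq2 (0.04997), and the adjusted p ran from 0.0307 to 0.421 over the alternatives.

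BMP4, the ligand closest to BMP2 within the family, showed no such separation. Its level (chr14:53949736-53958761, minus strand) was 8.52, 11.7 and 9.57 CPM in control, 9.17, 9.08 and 12.9 CPM in shLMO2-1, and 8.61, 9.47 and 7.95 CPM in shLMO2-2. The groups overlapped in all 3 comparisons. The log2 difference from control was 0.06 in shLMO2-1 (95% interval −0.32 to 0.43, adjusted p = 0.881 in edgeR's test) and −0.20 in shLMO2-2 (−0.57 to 0.18, adjusted p = 0.520).

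The balance of BMP2 and BMP4 within a library differed between control and hairpin cells. The ratio of BMP2 to BMP4 counts was 1.503, 0.974 and 1.02 in control replicates 1 to 3. It was 0.233, 0.335 and 0.144 in shLMO2-1 and 0.409, 0.490 and 0.531 in shLMO2-2. BMP2 counts were thus near or above those of BMP4 in control and well below them in all 6 hairpin libraries. A ratio of raw counts does not correct for gene length, so only its differences between libraries can be read.

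BMP7 rose under shLMO2-2. BMP7 encodes a ligand of the same receptor class known from kidney and bone (chr20:57168748-57266629, minus strand). Its level was 11.9, 14.7 and 18.1 CPM in control, 19.97, 19.6 and 23.6 CPM in shLMO2-1, and 19.1, 25.7 and 25.5 CPM in shLMO2-2. Every hairpin library was above every control. The mean went from 14.9 ± 3.10 CPM in control to 23.4 ± 3.73 CPM in shLMO2-2 (SD, n = 3), a log2 change of 0.65 (SE 0.16, adjusted p = 0.0335 in edgeR's quasi-likelihood test with Benjamini-Hochberg adjustment). The shLMO2-1 mean of 21.1 ± 2.204 CPM differed from control by 0.49 (SE 0.16), which missed the threshold (adjusted p = 0.0910). This difference passed with no filter (0.00977), in DESeq2 (0.0457) and with replicate number added to the fit as a block (0.0095). The hairpins did not differ detectably from each other (0.15, 95% interval −0.20 to 0.51, adjusted p = 0.830).

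The log2 change of BMP7 in shLMO2-2 ran from 0.51 to 0.81 over 18 alternatives, and 12 of them kept the call. The call was lost without control replicate 1 (0.51, adjusted p = 0.0707), control replicate 2 (0.64, 0.0686), shLMO2-1 replicate 2 (0.64, 0.0558), shLMO2-2 replicate 2 (0.57, 0.1201) or shLMO2-2 replicate 3 (0.58, 0.121), and with only the groups compared in the fit (0.64, 0.0646).

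INHBA was higher under both hairpins, to nearly the same level. INHBA encodes the inhibin beta A subunit, whose homodimer is activin A (chr7:41667168-41705834, minus strand). The level was 11.1, 8.10 and 9.99 CPM in control, from 158 to 192 counts. It was 28.5, 22.2 and 24.7 CPM in shLMO2-1 (375 to 507 counts), and 24.3, 23.7 and 24.9 CPM in shLMO2-2 (511 to 558 counts). All 6 hairpin libraries lay above all 3 controls, and the hairpin groups overlapped each other. Control averaged 9.74 ± 1.53 CPM, shLMO2-1 25.2 ± 3.17 and shLMO2-2 24.3 ± 0.609 (SD, n = 3). The log2 difference from control was 1.37 (SE 0.13) and 1.32 (SE 0.13), or 2.59 and 2.50 times the control level. Between the hairpins it was −0.05 (95% interval −0.32 to 0.22, adjusted p = 0.940 in edgeR's test), which does not show that the hairpins act alike. The antisense gene INHBA-AS1 overlaps INHBA, and whether the counting used strand is not given in the sources used here, but it held at most 7 counts per library.

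INHBB encodes the beta B subunit, which forms activin B and, with the beta A subunit, activin AB (chr2:120346143-120351808, plus strand). Its level was 49.8, 61.9 and 73.0 CPM in control, 64.7, 82.0 and 104 CPM in shLMO2-1, and 60.1, 83.6 and 83.2 CPM in shLMO2-2. Group means were higher under the hairpins, but libraries of each hairpin lay within the control range. The log2 difference from control was 0.44 in shLMO2-1 (SE 0.19, adjusted p = 0.178 in edgeR's test) and 0.30 in shLMO2-2 (SE 0.19, adjusted p = 0.359), neither past the threshold. Both passed with no filter on low counts, where the estimate of spread differs (adjusted p = 0.0012 and 0.045). With replicate number added to the fit as a block, both passed as well (0.0031 and 0.0181). Replicate 1 was the lowest library of INHBB in all 3 groups.

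Within libraries, INHBA took a larger part beside INHBB under the hairpins. The ratio of INHBA to INHBB counts was 0.224, 0.131 and 0.137 in control, 0.441, 0.271 and 0.238 in shLMO2-1, and 0.403, 0.284 and 0.300 in shLMO2-2. The group means were 0.164 ± 0.0518, 0.317 ± 0.109 and 0.329 ± 0.0650 (SD, n = 3), and the highest control lay just below the lowest hairpin library. INHBB counts exceeded INHBA counts in all 9 libraries. This ratio contains the INHBA difference for which the gene was chosen and has no test.

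**Figure D2:**
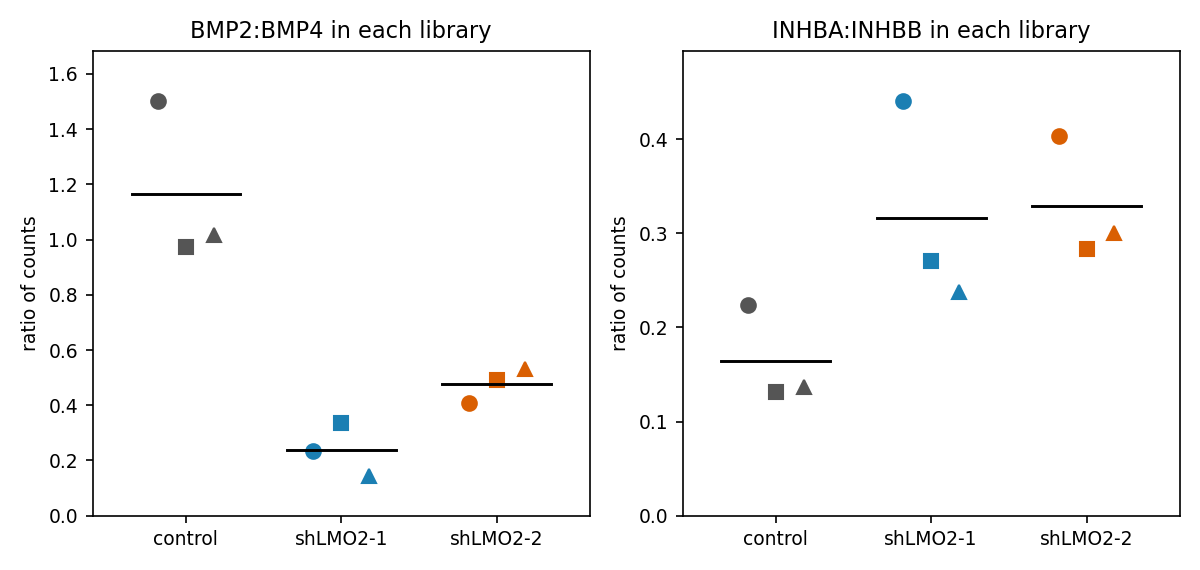
Ratio of BMP2 to BMP4 counts (left) and of INHBA to INHBB counts (right) in each library, on linear axes from 0, with circle, square and triangle for replicates 1, 2 and 3 and lines for group means. The BMP2 to BMP4 ratio is 0.974 to 1.503 in control and at most 0.531 under the hairpins, and the INHBA to INHBB ratio is at most 0.224 in control and at least 0.238 under the hairpins.

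FST, whose product binds activins and blocks them from their receptors, was near the limit of detection (chr5:53480409-53487134, plus strand). It had 6, 5 and 6 counts in control, 10, 17 and 19 in shLMO2-1, and 9, 4 and 9 in shLMO2-2. All 3 shLMO2-1 libraries lay above all libraries of both other groups. In CPM the shLMO2-1 libraries held 0.562, 0.996 and 1.25 against 0.348, 0.256 and 0.317 in control and 0.391, 0.186 and 0.404 in shLMO2-2. The log2 difference of shLMO2-1 from control was 1.58 (SE 0.48, adjusted p = 0.0665 in edgeR's test) and that of shLMO2-2 from shLMO2-1 −1.48 (95% interval −2.50 to −0.47, adjusted p = 0.236), neither past the threshold. In shLMO2-2 the difference from control was 0.10 (SE 0.52, adjusted p = 0.928). FST passed the filter on low counts (0.536 CPM in at least 3 libraries) only through shLMO2-1, so its test is no independent support for a difference there.

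The 3 TGF-beta ligands did not pass the test of the main fit in any comparison. TGFB1, stored as a latent complex (chr19:41301587-41353911, minus strand), stood at 27.8, 32.3 and 36.3 CPM in control, 39.1, 36.0 and 42.8 in shLMO2-1, and 34.4, 39.0 and 40.7 in shLMO2-2. The lowest hairpin libraries lay just inside the control range. Log2 differences from control were 0.29 in shLMO2-1 (SE 0.11, adjusted p = 0.143 in edgeR's test) and 0.24 in shLMO2-2 (SE 0.11, adjusted p = 0.208). With replicate number added to the fit as a block, the difference passed in shLMO2-1 (0.0356) and not in shLMO2-2 (0.0651). The annotated span of TGFB1 overlaps those of HNRNPUL1 and CCDC97 on the other strand, with 14139 to 21312 and 1598 to 2377 counts. Whether their exons overlap, and whether this affects the TGFB1 counts, was not tested.

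TGFB2 (chr1:218346235-218444619, plus strand) was the most abundant member, at 255, 186 and 219 CPM in control, 193, 219 and 204 in shLMO2-1, and 173, 194 and 172 in shLMO2-2. The groups overlapped, since the highest shLMO2-2 library lay above the lowest control. Its log2 difference of −0.29 (SE 0.10) missed the threshold (adjusted p = 0.107 in edgeR's test), and passed without control replicate 2 (0.0256) and with no filter (0.0140). In shLMO2-1 it was −0.10 (adjusted p = 0.613). The estimated TGFB2 counts share sequence with TGFB2-OT1 on the same strand, which held 57 to 310 counts.

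TGFB3 (chr14:75958099-75982991, minus strand) stood at 1.91, 1.90 and 1.90 CPM in control, 1.57, 1.93 and 2.90 in shLMO2-1, and 1.44, 1.72 and 3.06 in shLMO2-2. Replicate 3 was the highest library under each hairpin, and both hairpin groups reached below and above control. Log2 differences were 0.16 and 0.12 (SE 0.34 and 0.33, adjusted p = 0.826 and 0.862 in edgeR's test). TGFB3 held 28 to 68 counts, and its annotated span overlaps that of IFT43 on the other strand, which held 92 to 191. Whether this affects the TGFB3 counts was not tested.

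GDF15, a stress-induced ligand that acts through the receptor GFRAL, had 1, 2 and 5 counts in control, 5, 5 and 2 in shLMO2-1, and 4, 5 and 5 in shLMO2-2 (chr19:18374731-18389176, plus strand). It failed the filter and was added back to the test. A difference was not detectable at this depth, with log2 estimates of 0.71 (SE 0.69) and 0.53 (SE 0.67) from control and 95% intervals of −0.81 to 2.23 and −0.95 to 2.01.

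Over the 10 genes, 2 were called against control in shLMO2-1 (BMP2 lower and INHBA higher), where 8.4% of all genes tested were called, 4.53% higher and 3.87% lower. In shLMO2-2 the called genes were BMP2, INHBA and BMP7, 3 of 10, beside 8.96% of all genes (4.94% higher and 4.02% lower). The calls of BMP2 and INHBA follow from how they were chosen, so only the other 8 can be read against these shares. FST is among the 8 with the limit given above, since it passed the filter only through shLMO2-1. Of those 8, 1 (BMP7) was called in shLMO2-2 and 0 in shLMO2-1 by edgeR's test. In shLMO2-1, 4 of the 8 (FST among them) had an unadjusted p under 0.05, beside 23.9% of all genes. There limma-voom called 0 of the 8, beside 7.66% of all genes, and DESeq2 called 1 (BMP7), beside 12.4%. With no filter on low counts, 2 of the 8 were called in shLMO2-1 (BMP7 and INHBB, beside 6.43% of all genes) and 3 in shLMO2-2 (BMP7, INHBB and TGFB2, beside 7.25%), so the count moved with the setting.

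Libraries did not overlap with control for BMP7 and FST in shLMO2-1 (2 of the 8, beside 28.3% of all genes) and for BMP7 in shLMO2-2 (1 of the 8, beside 29.9%). FST passed the filter only through its shLMO2-1 libraries, so its lack of overlap there is no independent support. Between the hairpins, 0 of the 10 genes were called by edgeR's test, beside 0.768% of all genes (0.347% higher and 0.422% lower in shLMO2-2). There 2 had an unadjusted p under 0.05, beside 10.5% of all genes. By limma-voom 0 were called, beside 0.836%, and BMP2 alone was called by DESeq2 (beside 2.24%) and with no filter on low counts (beside 1.45%). BMP2 and FST were the genes whose hairpin groups did not overlap, beside 18.1% of all genes. These 2 also had the unadjusted p under 0.05, and the limit given for FST holds in both counts. The hairpin values of BMP2 are among those on which it was selected.

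**Figure D3:**
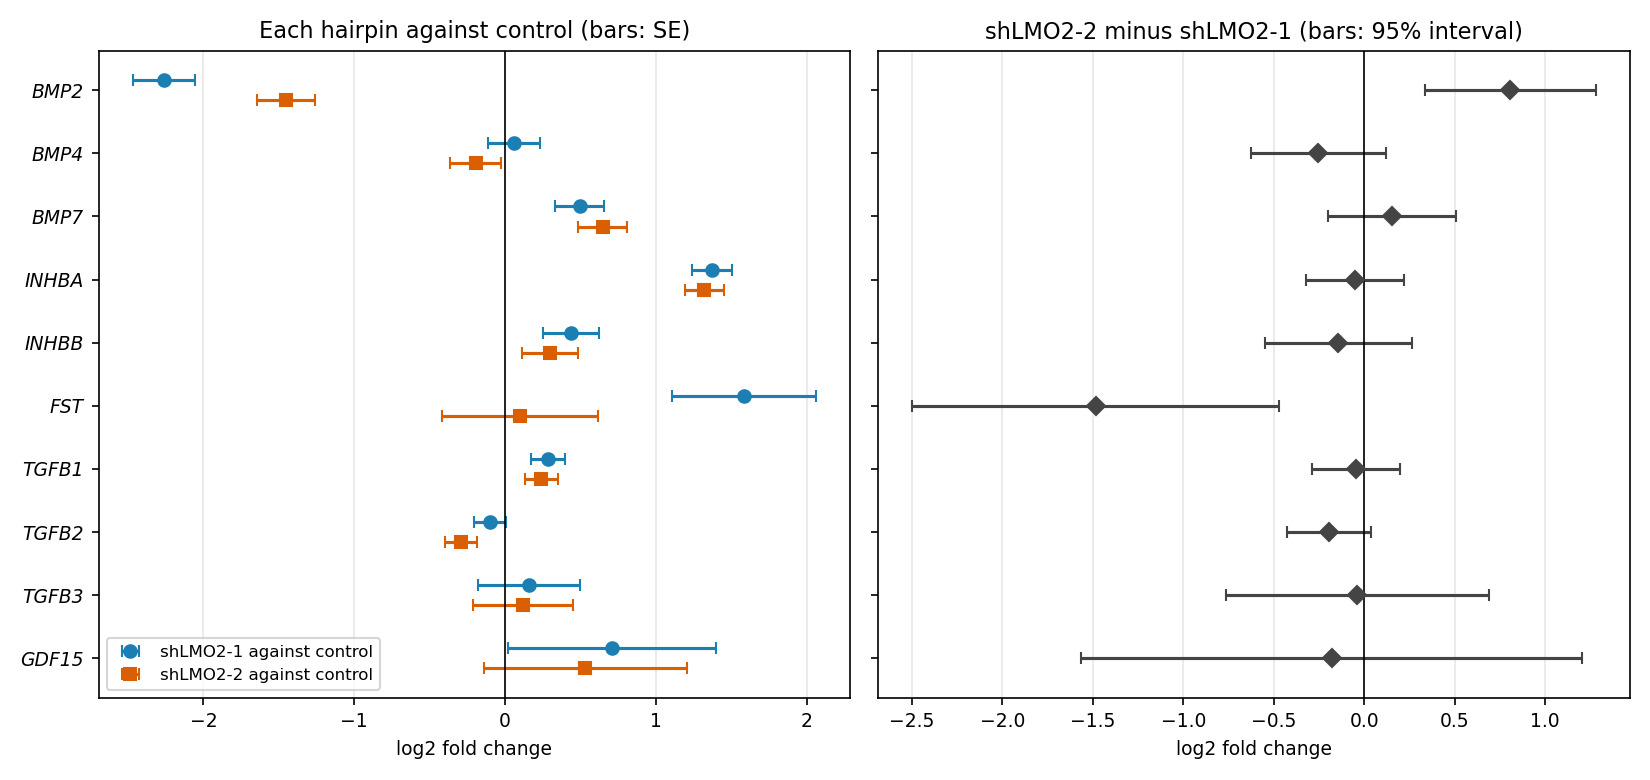
Left, log2 fold change of each gene for shLMO2-1 (circles) and shLMO2-2 (squares) against the common control libraries, with SE bars. Right, log2 fold change of shLMO2-2 against shLMO2-1 with 95% intervals. BMP2 lies at −2.26 and −1.45 and INHBA at 1.37 and 1.32 on the left, and on the right BMP2 (0.34 to 1.28) and FST (−2.50 to −0.47) have intervals that leave out 0. These intervals are not adjusted for the number of genes, and both differences missed the threshold (adjusted p = 0.147 and 0.236 in edgeR's test). FST passed the filter on low counts only through shLMO2-1.

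The genes varied by different amounts over the 9 libraries. The highest library was 6.94 times the lowest for BMP2 and 3.52 times for INHBA, against 1.62 times for BMP4 and 1.48 times for TGFB2. Control replicate 1 was the lowest of all 9 libraries for BMP7, INHBB, TGFB1 and GDF15 and the highest for BMP2 and TGFB2. Its part in the differences was not tested beyond the fits without it.

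The genes most like each called member in pattern were taken by Pearson correlation of log2 CPM over the 9 libraries, among 11030 genes of at least 5 CPM. BMP2 was followed most closely by TSR1 (r = 0.98), CDK14 (0.979) and METTL2A (0.977). For INHBA the closest were GPHN (0.991), RPS6KA2 (0.981) and FAM102A (0.98), and for BMP7 SH3BGRL2 (0.979), DPH5 (0.974) and CFL2 (0.971). These coefficients include the difference between the groups and describe likeness only.

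Beyond the 10 genes, 108 further genes of the pathway were listed by role, and 68 of them passed the filter on low counts. Against control 5 rose and 4 fell in shLMO2-1, or 13.2% of those tested, beside 8.4% of all genes. In shLMO2-2 2 rose and 8 fell, or 14.7%, beside 8.96%. Between the hairpins 4 were lower and 0 higher in shLMO2-2, or 5.88%, beside 0.768%. SOSTDC1 is among the 8 that fell in shLMO2-2 and among these 4. It passed the filter only through control and shLMO2-1, so it lends these counts no independent support. The median log2 differences of the 68 genes were 0.02, −0.04 and −0.04, near those of all genes tested. The list was chosen with earlier results of these data known.

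Of 24 other ligands 8 were tested, and BMP5, a further BMP, fell in shLMO2-2. BMP5 stood at 8.58, 6.05 and 5.18 CPM in control, 6.02, 5.22 and 3.96 in shLMO2-1, and 3.22, 3.48 and 2.65 in shLMO2-2. All shLMO2-2 libraries lay below all controls (log2 change −1.08, SE 0.23, adjusted p = 0.0170 in edgeR's test), while shLMO2-1 overlapped control. The call was lost without shLMO2-2 replicate 3 (0.0709). In shLMO2-1, 0 of the 8 were called by edgeR (beside 8.4% of all genes), limma-voom (7.66%) or DESeq2 (12.4%). There 1 of the 8 had an unadjusted p under 0.05 in edgeR's test, beside 23.9% of all genes.

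Of 19 receptors and co-receptors 14 were tested. ENG, which encodes endoglin, a co-receptor for TGF-beta and BMP ligands, rose under each hairpin, from 19.7, 20.7 and 25.1 CPM in control to 34.8, 37.3 and 31.1 in shLMO2-1 and 34.96, 34.1 and 33.0 in shLMO2-2. The hairpin libraries lay above all controls, with log2 changes of 0.66 (SE 0.11, adjusted p = 0.00478 in edgeR's test) and 0.64 (SE 0.11, adjusted p = 0.00527). RGMA, a BMP co-receptor, fell in shLMO2-1 by 0.59 on the log2 scale (SE 0.12, adjusted p = 0.0120), a call lost without control replicate 3 (0.0502) or shLMO2-1 replicate 2 (0.0536). The shLMO2-2 libraries also lay below all controls for RGMA (−0.38, adjusted p = 0.0617), and it was not called between the hairpins (0.608). ENG is also an endothelial gene, and the sums of the 4 endothelial markers, of which KDR is the largest part, are given above.

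Of 16 antagonists and decoys 7 were tested. SOSTDC1, a secreted BMP antagonist, had 19, 24 and 22 counts in control and 16, 13 and 15 in shLMO2-1, but 2, 0 and 1 in shLMO2-2. The shLMO2-2 libraries lay below all others, and the group differed from control (adjusted p = 0.00131 in edgeR's test) and from shLMO2-1 (0.00792). SOSTDC1 passed the filter on low counts only through control and shLMO2-1, where it was higher. These tests are therefore no independent support for a difference. The difference between the hairpins was lost without shLMO2-2 replicate 3 (0.0524). BAMBI, a decoy receptor, rose by 0.37 in shLMO2-1 (SE 0.10, adjusted p = 0.0392), but passed only with all libraries or without control replicate 2 or shLMO2-2 replicate 2, and reached an adjusted p of 0.121 without shLMO2-1 replicate 3. In shLMO2-2 its difference from control was 0.27 (adjusted p = 0.110), with overlapping libraries.

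Of 18 latency and processing genes 13 were tested. THBS1, which encodes thrombospondin 1, known to release TGF-beta from its latent form, stood at 567, 493 and 543 CPM in control, 529, 601 and 572 in shLMO2-1, and 198, 251 and 236 in shLMO2-2. It fell only in shLMO2-2 (log2 change −1.23, SE 0.09, adjusted p = 3.45e-05 in edgeR's test), and differed between the hairpins by −1.31 (SE 0.09, adjusted p = 0.000115). FBN1, the microfibril protein fibrillin 1 to which latent complexes bind, fell in shLMO2-2 by 1.47 on the log2 scale (SE 0.30, adjusted p = 0.0150), but not without control replicate 3 (0.0529) or shLMO2-2 replicates 2 (0.0565) or 3 (0.0579). BMP1, a procollagen proteinase and not a BMP ligand, rose in shLMO2-2 by 0.27 (SE 0.06, adjusted p = 0.0264), and lost its call without control replicate 1 or 3 or any shLMO2-2 replicate (adjusted p up to 0.111). ITGAV, the integrin alpha V subunit, fell in shLMO2-1 by 0.34 (SE 0.07, adjusted p = 0.0151), but not without shLMO2-1 replicate 3 (0.0648). Under the other hairpin, FBN1 (−1.04, adjusted p = 0.0586), BMP1 (0.18, 0.109) and ITGAV (−0.24, 0.0592) moved the same way without overlapping control. None of these genes was called between the hairpins.

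Of 16 SMADs and regulators 14 were tested. The inhibitory SMAD6 rose in shLMO2-1, from 16.4, 12.4 and 14.96 CPM in control to 21.4, 21.5 and 21.0 (log2 change 0.55, SE 0.11, adjusted p = 0.0129 in edgeR's test). It stood at 17.5, 16.2 and 17.7 CPM in shLMO2-2, and the call was lost without shLMO2-1 replicate 2 (0.0541). SKI, a co-repressor of SMAD complexes, rose in shLMO2-1 by 0.30 (SE 0.07, adjusted p = 0.0222), but not without control replicate 2 or 3 or shLMO2-1 replicate 2 (adjusted p up to 0.0984). NEDD4L, a ubiquitin ligase of SMAD2 and SMAD3, fell in shLMO2-2 by 0.34 (SE 0.09, adjusted p = 0.0372), a call lost without shLMO2-1 replicate 1 or 2 or any shLMO2-2 replicate (adjusted p up to 0.118). Under the other hairpin, SKI (0.18, adjusted p = 0.119) and NEDD4L (−0.19, 0.216) moved the same way without overlapping control. Neither was called between the hairpins.

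Of 16 textbook targets of the pathway 13 were tested. CCN2, listed in the table as CTGF, fell under each hairpin, from 34.96, 28.3 and 27.2 CPM in control to 12.9, 14.2 and 13.5 in shLMO2-1 and 7.91, 8.49 and 8.58 in shLMO2-2. The 3 groups did not overlap, and log2 changes were −1.16 (SE 0.11, adjusted p = 0.000258 in edgeR's test) and −1.85 (SE 0.12, adjusted p = 1.66e-05). Between the hairpins CTGF differed by −0.70 (SE 0.12, adjusted p = 0.0246), a call lost without any 1 of the 6 hairpin libraries (adjusted p up to 0.142). CDKN2B, a cyclin-dependent kinase inhibitor, fell by 0.43 in shLMO2-1 (SE 0.09, adjusted p = 0.0172) and by 0.45 in shLMO2-2 (SE 0.09, adjusted p = 0.0143). These calls were lost in shLMO2-1 without control replicate 3 or shLMO2-1 replicate 1 or 2 (up to 0.0707), and in shLMO2-2 without control replicate 3 or shLMO2-2 replicate 3 (up to 0.0603).

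ID4, of a family known as BMP targets, stood at 228, 228 and 239 CPM in control, 267, 281 and 312 in shLMO2-1, and 191, 207 and 212 in shLMO2-2. It rose in shLMO2-1 (log2 change 0.31, SE 0.07, adjusted p = 0.0230 in edgeR's test) and was lower in shLMO2-2 than in shLMO2-1 by −0.49 (SE 0.07, adjusted p = 0.00753). The rise was lost without control replicate 2 or 3 or shLMO2-1 replicate 2 or 3 (up to 0.0826). TGFBI, named for its induction by TGF-beta, fell in shLMO2-2 by 0.41 (SE 0.11, adjusted p = 0.0412), but passed only with all libraries or without shLMO2-1 replicate 2 or 3, and reached 0.121 without shLMO2-2 replicate 1. In shLMO2-1 it also lay below all controls (−0.22, adjusted p = 0.249). Of 23 calls among the listed genes, 8 were kept in each of the 9 fits that left out a library. SOSTDC1 in shLMO2-2 against control is among these 8, with the limit given above.

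**Figure D4:**
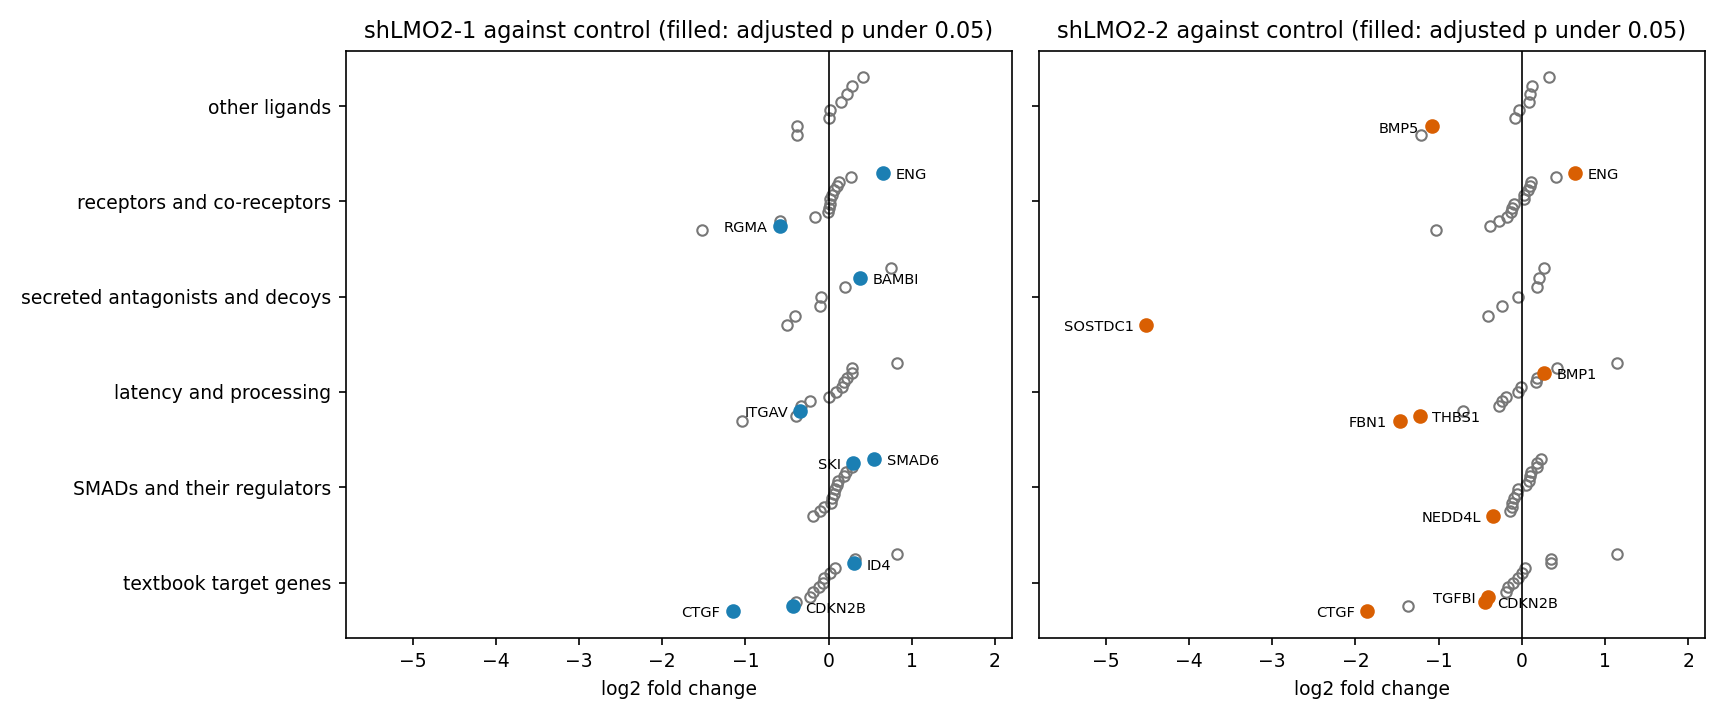
Log2 fold change against control of the tested genes of 6 pathway lists (vertical axis, by list) for shLMO2-1 (left) and shLMO2-2 (right), with filled points for genes at an adjusted p under 0.05 and open points for the rest. The named points include ENG at 0.66 and 0.64, CTGF at −1.16 and −1.85 and THBS1 at −1.23 in shLMO2-2, and the position of SOSTDC1 rests on 3 counts in shLMO2-2 and depends on the prior count of the fit.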

How the data were processed

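Bulk RNA of 9 libraries in 3 groups was analysed, each library placed in its group by the plasmid in its labels. The authors deposited a table of estimated counts by gene symbol, with 11.67% to 12.81% of a library's values not whole. Salmon 0.12, DESeq2 1.22.2 and GRCh38.p12 are named in the submitters' processing notes, without a stated role. Use of strand is not given in the sources used here. Per the labels' protocols, polyadenylated RNA was selected.

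Counts were rounded and tested with edgeR 4.0.16 in R 4.3.3 (TMM, quasi-likelihood F-test, 1 factor of 3 groups, Benjamini-Hochberg adjustment over all genes tested, threshold 0.05). The filter (filterByExpr, minimum count 10, total 15) kept 14708 genes, and GDF15 was added back, giving 14709 genes with 99.91% of the counts. Standard errors and 95% intervals were derived from the fold change and the F statistic, and cover only the spread between libraries. CPM uses TMM-scaled totals. Alternatives were other scalings and filters, limma-voom (limma 3.58.1), DESeq2 1.42.0, fits of 2 groups alone, a replicate block, a threshold of 0.01, transcript length, and leaving out each library. The edgeR fit was also run on simulated counts, with changes set only in shLMO2-1 and no effect of replicate number. This checked the code, and no result here rests on it.

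The 10 members and the pathway and marker lists were chosen with earlier results of these data known. All members were named, of each pathway list up to 4 called genes of smallest adjusted p, and for each called member of at least 1 CPM the 3 genes most alike in pattern. Gene positions come from GENCODE 29 (GRCh38) and upstream windows from RefSeq (GRCh38.p14). Within groups, chi-square per gene between 2 libraries was 4.836 to 27.1 (13122 genes), above counting noise, and no libraries were merged.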

Additional observations from a re-analysis of the deposited data

Results flagged for a closer look

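Between the hairpins, 0 of the 10 members and 4 of the 68 further pathway genes tested (5.88%) differed, beside 0.768% of all genes. The test was edgeR's quasi-likelihood test with Benjamini-Hochberg adjustment, and each of the 4 was lower in shLMO2-2 than in shLMO2-1. The log2 difference was −0.70 for CTGF (adjusted p = 0.0246), with the 3 libraries of shLMO2-2 all below those of shLMO2-1. For ID4 it was −0.49 (adjusted p = 0.00753), again with no overlap. For THBS1 it was −1.31 (adjusted p = 0.000115), with 198 to 251 CPM against 529 to 601. For SOSTDC1 the fitted value was −4.11 (adjusted p = 0.00792), which depends on the prior count, since the 3 shLMO2-2 libraries held 2, 0 and 1 counts. The gene passed the filter on low counts only through the other groups, so its test is no independent support for the difference. With 1 library left out, the CTGF call was lost in 6 of 9 fits and the SOSTDC1 call in 1. Those of ID4 and THBS1 were kept in all 9.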

How the results depend on the processing

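Over the alternatives, the log2 difference from control ran from −2.50 to −2.13 (shLMO2-1) and −1.55 to −1.36 (shLMO2-2) for BMP2, and from 1.25 to 1.47 and 1.20 to 1.42 for INHBA. With no filter on low counts, 4, 5 and 1 members (those named above) and 1680, 1895 and 378 genes were called in shLMO2-1, shLMO2-2 and between the hairpins. In this fit INHBB in shLMO2-1 kept its log2 difference (0.439 against 0.438), while its adjusted p in edgeR's test fell from 0.178 to 0.0012. The smaller p thus comes with a different estimate of spread, so passes in this setting call for caution. DESeq2 called 1 member and 316 genes between the hairpins. With only the groups compared, 691, 782 and 186 genes were called in the 3 comparisons, and at an adjusted p under 0.01, 353, 390 and 46. Fits of only the groups compared also lost the calls of BAMBI, ID4 and SKI in shLMO2-1 and of BMP1, NEDD4L and TGFBI in shLMO2-2. Their adjusted p in edgeR's test ran from 0.0518 to 0.0797. The replicate block called 5 members in shLMO2-1, adding BMP7, INHBB (adjusted p = 0.0031) and TGFB1 (0.0356), with INHBB also passing in shLMO2-2 (0.0181). Of the members other than BMP2 and INHBA it called 3 of 8 in shLMO2-1, beside 15.1% of all genes, and 2 of 8 in shLMO2-2, beside 16.1%. With this replicate block 2217, 2371 and 255 genes were called, against 1236, 1318 and 113 without it. Replicate numbers were not taken as pairs in the main fit. Deviations of same-numbered libraries correlated at −0.106 to 0.413 (mean 0.207), and those of other numbers at −0.432 to 0.304 (mean −0.105). As deviations were taken from group means, the second mean is tied to the first and is no separate comparison. In 13 of 18 cases a library was most like its own number, and the main fit takes no account of such likeness. Leaving out each library in turn called 546 to 1397, 494 to 1243 and 38 to 239 genes in the 3 comparisons, and 2, 2 to 3 and 0 members. Signs turned, in no case for a called gene, for BMP4 (−0.12 to 0.19), TGFB2 (−0.21 to 0.013) and TGFB3 (−0.12 to 0.34) in shLMO2-1, for FST (−0.082 to 0.36) and TGFB3 (−0.28 to 0.32) in shLMO2-2, and between the hairpins for INHBA (−0.14 to 0.052), INHBB (−0.30 to 0.039), TGFB1 (−0.11 to 0.017) and TGFB3 (−0.44 to 0.23). The cause of these shifts was not tested. Longest transcripts in place of median ones moved levels per kilobase, as described. Counts of at most 24 per library limit what can be seen for FST, GDF15 and SOSTDC1.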
